A study of Mus musculus with 39 samples.

Results

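A set of 10 genes of myeloid cells and leukocytes was followed across 39 single cells sorted from adult mouse liver: Elane, Mpo, Prtn3, Ms4a3, Nkg7, Srgn, Ly6c2, Clec12a, Laptm5 and Clec4f, out of the 10061 genes measured. They were picked because earlier work on these same values found them high in a few cells, so their levels in those cells describe the choice and are given with no test. The cells came from livers labelled Krt19CreERT/Rosa26CAG-EGFP and were sorted for GFP, then picked individually for RNA sequencing. Krt19 encodes a keratin of bile duct epithelium, and CreERT is a recombinase that works only once a tamoxifen-like ligand is given, so a green cell is one in which Krt19-driven Cre acted, or a descendant of one. The labels put all 39 cells in 1 group and name no animal, age, ligand dose, sort or sequencing run. Cells of such a group are not replicates, so no test between cells was made.

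Neutrophils are made in bone marrow from granulocyte-monocyte progenitors. At the promyelocyte stage they fill their first, azurophil granules with the peroxidase encoded by Mpo and with serine proteases encoded by Elane, Prtn3 and Ctsg, held on the proteoglycan core protein encoded by Srgn, and the transcripts of these proteins are largely shut off before the cell matures. Kupffer cells are the resident macrophages of the liver sinusoids, and Clec4f encodes a C-type lectin that marks them in mice.

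Elane and Prtn3 are neighbours on mouse chromosome 10, Mpo is on chromosome 11 and Clec4f on chromosome 6. Because the granule genes were high in the same cells and Clec4f in another, the promoters of 3 granule genes are shown beside that of Clec4f, taken from RefSeq on build GRCm38.p6, from 250 bases before to 50 bases after the gene's start, on the gene's own strand. Capitals mark GAGGAA, a core bound by the myeloid factor PU.1, and AACNGC, a core bound by MYB, or their reverse complements.
Elane: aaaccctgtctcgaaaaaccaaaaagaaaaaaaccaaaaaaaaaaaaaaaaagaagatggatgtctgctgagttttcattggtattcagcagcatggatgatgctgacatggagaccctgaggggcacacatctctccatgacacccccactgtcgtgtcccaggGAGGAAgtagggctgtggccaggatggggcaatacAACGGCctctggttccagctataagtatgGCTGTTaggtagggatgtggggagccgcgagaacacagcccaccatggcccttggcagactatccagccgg
Prtn3: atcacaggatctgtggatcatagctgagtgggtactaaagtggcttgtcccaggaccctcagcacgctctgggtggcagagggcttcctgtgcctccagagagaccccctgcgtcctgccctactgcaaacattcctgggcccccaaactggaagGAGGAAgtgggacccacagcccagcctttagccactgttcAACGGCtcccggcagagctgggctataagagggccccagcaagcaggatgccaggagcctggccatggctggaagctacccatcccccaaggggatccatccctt
Mpo: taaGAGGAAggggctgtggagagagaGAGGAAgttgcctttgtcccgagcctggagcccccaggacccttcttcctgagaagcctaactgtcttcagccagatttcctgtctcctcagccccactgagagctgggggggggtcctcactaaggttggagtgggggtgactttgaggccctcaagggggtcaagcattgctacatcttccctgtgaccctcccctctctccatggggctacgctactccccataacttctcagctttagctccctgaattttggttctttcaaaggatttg
Clec4f: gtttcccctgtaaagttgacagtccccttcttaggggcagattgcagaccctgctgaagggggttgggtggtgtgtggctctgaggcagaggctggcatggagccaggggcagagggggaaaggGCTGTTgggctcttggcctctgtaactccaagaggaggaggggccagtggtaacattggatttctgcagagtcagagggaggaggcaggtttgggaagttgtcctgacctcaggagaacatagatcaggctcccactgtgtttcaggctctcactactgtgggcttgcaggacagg
The windows are chr10:79886062-79886361 on the plus strand for Elane, chr10:79879417-79879716 on the plus strand for Prtn3, chr11:87793534-87793833 on the plus strand for Mpo and chr6:83656067-83656366 on the minus strand for Clec4f. Counted from the start, the PU.1 core of Elane lay at -85 and its MYB cores at -50 and -21. Prtn3 had the PU.1 core at -95 and the MYB core at -55, so these neighbours carry the same pair in the same order. Mpo had the PU.1 core at -247 and -224 and no MYB core, and Clec4f had the MYB core at -126 and no PU.1 core. All 10 genes matched the promoter table, with 12 promoters. GAGGAA was found for 7 of the 10 genes, against 31.3% of 27025 symbols, and AACNGC for 6 of 10, against 39.2%. Presence of GAGGAA did not follow the cells in which the genes were high. Nkg7 and Srgn, both high with Elane, lacked GAGGAA along with Clec4f. Laptm5, highest in the cell with most Clec4f, had it at -38. The C/EBP pattern TTNNGNAA was found for 5 of 10 (44.1% of symbols) and the RUNX core TGTGGT for 4 of 10 (18.9%), both strands being searched each time. These are letters in a window, not sites shown to be bound.

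Values are in CPM, reads per 1000000 as derived from the deposited log2 values, with each cell's deposited scaling kept, so that a cell's values summed to 351255 to 3128332. A median of 960 genes per cell reached 100 CPM (range 581 to 1474), and 1 CPM stood for 3.67 to 41.5 reads in cells 1 to 37, by the commonest low value of each cell. Of 84 values of the 10 genes that were above 0 and under 1000 reads in those cells, 83 lay within 0.05 reads of a whole number, so small values are also given in reads. Reads in cells 38 and 39 followed no single step and their depth is unknown. No molecular identifiers were named, so reads are not separate molecules. A 0 here is a value listed at 0, which does not show that the transcript was absent.

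Elane, Mpo and Prtn3 were all at 100 CPM or more in 3 of the 39 cells, numbers 29, 32 and 36 (exact Clopper-Pearson 95% interval of the share 1.62% to 20.9%, for the choice of cells alone), and Clec4f in 2 cells, 33 and 2 (0.627% to 17.3%). Both intervals take the cells as independent draws, which labels without animal or sort cannot show. The genes and the 100 CPM level were chosen from these same values, so the intervals are no estimate for other livers. Cells 29, 32 and 36 were also the cells with 3 or more of the 10 genes at 100 CPM, and each of them had 9, all but Clec4f, where 3.17% of all genes reached 100 CPM in all 3. Cell 33 was high in Clec4f and Laptm5 and in none of the other genes. All 10 genes reached 100 CPM in at least 1 cell, as did 81% of all genes. The remaining 35 cells had 1 of the 10 genes at 100 CPM at most, which was Clec4f in cell 2 and Laptm5 in cell 3.

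**Figure D1:**
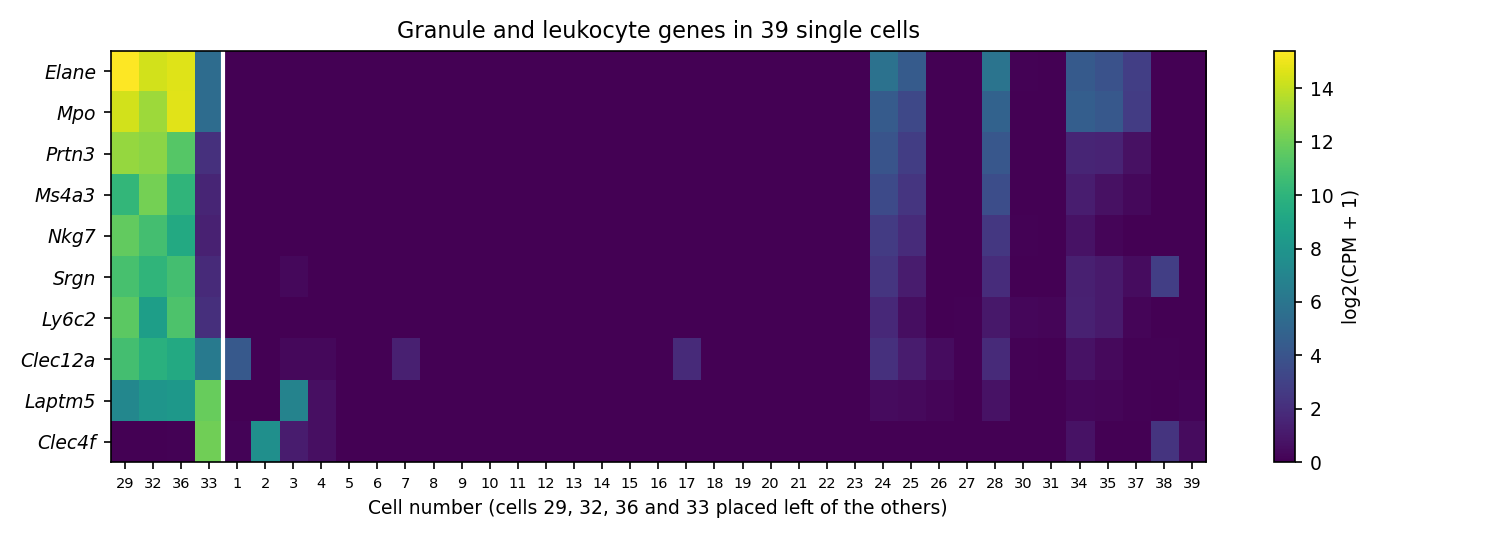
Level of the 10 genes (rows) in each of the 39 cells (columns, by cell number), as log2(CPM + 1), with cells 29, 32, 36 and 33 left of the white line. Cells 29, 32 and 36 hold 9 genes each at 100 CPM or more, cell 33 holds Clec4f and Laptm5, and cells 24, 25, 28, 34, 35 and 37 show the granule genes at low levels.

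Elane, encoding neutrophil elastase, had 43187 CPM in cell 29, 21205 CPM in cell 32 and 25577 CPM in cell 36, against a highest value of 59.3 CPM among the other 36 cells, in cell 28. The lowest of the 3 cells was thus 357 times the highest of the others, and 28 cells were listed at 0. Mpo, encoding myeloperoxidase, which makes hypochlorous acid in the phagosome, had 20886, 8871 and 26219 CPM in cells 29, 32 and 36, against at most 42.7 CPM in the others, in cell 33. Prtn3, encoding proteinase 3, had 7859, 6699 and 2631 CPM in the same cells, against at most 17.4 CPM. The gap between the 3 cells and the others follows from how cells and genes were chosen, and 0.139% of all genes were at 100 CPM in these 3 cells and in none of the other 36. The 3 genes did not share an order among the 3 cells: Elane and Prtn3 were highest in cell 29, Mpo in cell 36.

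Srgn, whose product packs proteases into granules, had 1944, 1081 and 1764 CPM in cells 29, 32 and 36, against at most 6.20 CPM elsewhere, in cell 38. It was the most even of the 9 genes over the 3 cells, with a highest value 1.80 times the lowest. Ms4a3, a membrane-spanning protein of granulocyte-monocyte progenitors, had 1175, 4617 and 1088 CPM, against at most 11.7 CPM. Nkg7, a granule membrane protein best known from natural killer and cytotoxic T cells, had 3267, 1808 and 663 CPM, against at most 5.33 CPM. Just 4 of the 15 listed T and NK genes were measured, and in these 3 cells Cd8a and Prf1 were listed at 0 and Cd3d reached at most 2.40 CPM, so Nkg7 stood without them.

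Ly6c2, a surface antigen of monocytes and their precursors, had 2879, 397 and 2221 CPM in cells 29, 32 and 36, against at most 3.14 CPM in the others. Its highest value was 7.26 times its lowest in the 3 cells, the widest span of the 9 genes. Ly6c2 has a near-identical neighbour, Ly6c1, that is not analysed here, and how reads were shared between them is uncertain. Clec12a, an inhibitory lectin receptor of myeloid cells, had 1787, 868 and 644 CPM, against 76.4 CPM in cell 33, 18.6 CPM in cell 1 and at most 3.44 CPM in the rest. It was above 0 in 19 cells, more than any of the other genes.

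Laptm5, a lysosomal membrane protein of blood cells, had 138, 255 and 301 CPM in cells 29, 32 and 36, against 3575 CPM in cell 33 and 115 CPM in cell 3. It was the gene with the most cells at 100 CPM, 5, and no cell lay between 1 CPM and 100 CPM. Clec4f and Laptm5 are not among the 0.716% of genes that reached 100 CPM in cell 33 and in no other cell. Clec4f had 4341 CPM in cell 33 and 206 CPM in cell 2, and was listed at 0 in cells 29 and 32 and at 0.0551 CPM, 1 read, in cell 36. Thus Laptm5 spanned the granule cells and cell 33, while Clec4f and the 8 granule genes had no cell in common at 100 CPM. Of all 10061 genes, 10.3% reached 100 CPM in cell 33. The 8 were picked for being high in other cells, so this lack of overlap describes the choice.

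Per kilobase of transcript, with lengths from GENCODE release M21 rather than the authors' annotation, Elane ranked first of the 10 genes in all 3 granule cells. It had 43890, 21550 and 25993 CPM per kb in cells 29, 32 and 36. The next gene was Prtn3 in cells 29 and 32, with 7667 and 6536 CPM per kb, and Mpo in cell 36, with 9534 CPM per kb. In cell 29 Mpo followed Prtn3 closely at 7595 CPM per kb, and with single cells that order has no error to be read against. Clec12a and Laptm5 held places 8 and 9 in each of the 3 cells. In cell 33 Clec4f led with 1757 CPM per kb and Laptm5 followed with 1375 CPM per kb.

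Across all genes, 14 of 10061 (0.139%) reached 100 CPM in cells 29, 32 and 36 and in none of the other 36 cells. The members make up 8 of these 14, which is what they were chosen for. Leaving out cell 29, 32 or 36 in turn, 36, 25 and 31 genes did so in the remaining granule cells. By likeness of log2(CPM + 1) over the 39 cells, among 10012 genes at 1 CPM in at least 3 cells, the 5 genes most like Elane were Mpo (Pearson r 0.997), Prtn3 (0.983), Ms4a3 (0.971), Nkg7 (0.960) and Ctsg (0.957). These coefficients describe the 39 libraries and depend on the low values too: with values under 100 CPM set to 0, 2 of the 5 names remained. Ctsg, the azurophil protease cathepsin G, had 716, 2014 and 826 CPM in cells 29, 32 and 36, against at most 5.03 CPM. Prss57, another neutrophil serine protease gene, ranked 10 at 0.914 and is named for lying near Elane, after its values were seen. It had 423, 898 and 73.5 CPM in the 3 cells, against at most 3.24 CPM.

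Prss57 lies 6 places before Elane on chromosome 10 and Prtn3 immediately before it, in the RefSeq order of GRCm38.p6. The measured genes between and beyond them did not share the pattern. Palm was at most 28.4 CPM and Misp at most 0.187 CPM in cells 29, 32 and 36, against 490 and 449 CPM at the highest elsewhere, and Ptbp1, a splicing factor, had 5.90, 175 and 522 CPM in cells 29, 32 and 36, with a highest value of 934 CPM among the others. On the far side Med16 and R3hdm4 were at most 4.62 CPM in the granule cells, against highest values of 500.1 and 4462 CPM.

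Of the 11 measured genes of the azurophil list, 8, 9 and 9 reached 100 CPM in cells 29, 32 and 36, against 3 in cell 33 and a median of 0 (highest 3) in the 35 remaining cells. Of all 10061 genes, 11.3%, 13.8% and 14.7% reached 100 CPM in these 3 cells. The list holds 4 of the members, Elane, Mpo, Prtn3 and Srgn, which were chosen for being high there. Cst7, encoding cystatin F, an inhibitor of granule cathepsins, had 163, 573 and 95.2 CPM in cells 29, 32 and 36. Serpinb1a, an inhibitor of elastase and its relatives, had 3274, 1717 and 394 CPM, but it also reached 100 CPM in 11 of the 35 cells and was highest, at 10967 CPM, in cell 24. Ctsc, whose enzyme trims the granule proteases into active form, was listed at 0 in cell 29 and at 0.0411 and 0.220 CPM in cells 32 and 36, against 2908 CPM in cell 33. Lyz2, encoding lysozyme, had 606, 0.0411 and 126 CPM in cells 29, 32 and 36 and 579 CPM in cell 33. Gusb, encoding the lysosomal enzyme beta-glucuronidase, had 6.84, 1047 and 198 CPM, and Cd63, a tetraspanin of granules and lysosomes, had 81.9, 453 and 701 CPM.

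The 3 granule cells differed in genes of later granules and of the granulocyte path. Of 7 measured later granule genes, 3, 4 and 0 reached 100 CPM in cells 29, 32 and 36, against 0 in cell 33 and a median of 1 (highest 2) in the 35 others. S100a8 and S100a9, which form calprotectin, had 1504 and 1360 CPM in cell 29, 1591 and 1251 CPM in cell 32, and 33.7 and 0 CPM in cell 36. Ngp, encoding neutrophilic granule protein, had 545, 278 and 0 CPM in cells 29, 32 and 36, and Ltf, encoding lactoferrin of the specific granules, was listed at 0 in all 3. Lcn2, a specific granule gene, reached 100 CPM in cell 32 alone of the 3, with 159 CPM, and in 19 of the 35 remaining cells. S100a8, S100a9 and Ngp were thus higher in cells 29 and 32 than in cell 36, where S100a8 was still detected, with no replicate for any of the 3 cells.

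Of the 13 measured granulocyte progenitor genes, 10, 9 and 8 reached 100 CPM in cells 29, 32 and 36, against 1 in cell 33 and a median of 2 (highest 4) in the 35 others, and 4 of the 13 are members. Kit, the stem cell factor receptor of early progenitors, had 315, 225 and 335 CPM in the 3 cells, against at most 2.73 CPM elsewhere. Igsf6 had 1288 and 995 CPM in cells 29 and 32 and 0.440 CPM in cell 36, and Csf3r, the G-CSF receptor, had 1904 CPM in cell 29, 0.0983 CPM in cell 32 and 67.5 CPM in cell 36. Plac8 had 1245, 985 and 2092 CPM in the 3 cells, and Gstm1, a glutathione transferase, had 301, 1096 and 509 CPM. Calr, encoding a chaperone of the endoplasmic reticulum that binds newly made myeloperoxidase, had 610, 394 and 1413 CPM, but 22 of the 35 others also held it at 100 CPM. Cd34, of earlier stem and progenitor cells, was listed at 0 in each of them.

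Proliferation genes were uneven over the same cells. Of 12 measured, 1, 6 and 6 reached 100 CPM in cells 29, 32 and 36, against 2 in cell 33 and a median of 0 (highest 7) in the 35 others. Mki67, a protein of dividing cells, had 12.4, 220 and 1270 CPM, Rrm2, a subunit of ribonucleotide reductase, had 0, 163 and 1169 CPM, and Mcm5, of the replicative helicase, had 0.0855, 0 and 984 CPM. Cell 29 held Pcna, the replication clamp, at 624 CPM and no other gene of the list at 100 CPM. Cell 36, highest in Mki67 and lowest in the later granule genes, also had the most genes of any cell at 100 CPM, 1474, and cells 32 and 29 ranked 5 and 11 with 1391 and 1139. The part of library complexity in these differences was not tested.

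**Figure D2:**
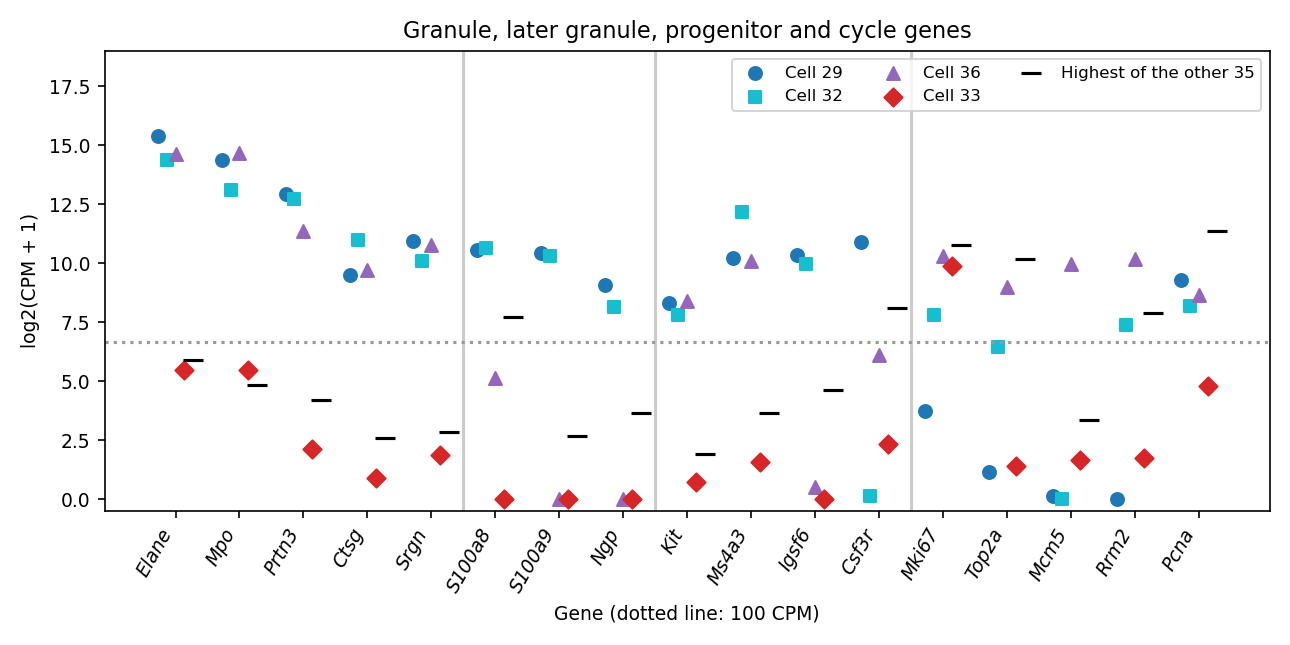
Level of granule, later granule, progenitor and cell cycle genes as log2(CPM + 1) in cells 29, 32, 36 and 33, with a bar for the highest of the other 35 cells and a dotted line at 100 CPM. Cells 29, 32 and 36 share Elane, Mpo, Prtn3, Ctsg, Srgn, Kit and Ms4a3, while S100a9 and Ngp are listed at 0 in cell 36, and Mcm5 is near 0 in cells 29 and 32.

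Of 13 listed myeloid transcription factor genes, 7 were measured. Spi1, which encodes PU.1, Myb, Cebpe, Gfi1, Irf8 and Ikzf1 were not among them, so their levels are unknown here. Among those measured, 0, 3 and 1 reached 100 CPM in cells 29, 32 and 36. Cell 33 had 1 at that level and the others had at most 2. Fli1, an ETS factor of blood cells, had 20.1, 154 and 433 CPM in the 3 cells, and Cebpa, a driver of the granulocyte fate, had 0, 148 and 13.1 CPM. Ets1 had 114 CPM in cell 32 and under 1 CPM in cells 29 and 36. Of 9 measured monocyte genes, 2 reached 100 CPM in each of the 3 cells, the members Ly6c2 and Clec12a, against 3 in cell 33 and a median of 2 (highest 3) in the others, so the monocyte list did not set these cells apart. Of the measured pan-leukocyte genes, 12 in all, 5, 7 and 6 reached 100 CPM in cells 29, 32 and 36, against 10 in cell 33 and a median of 0 (highest 2) in the 35 others. The members Laptm5 and Srgn, chosen for being high in the 3 cells, count in each of these numbers there, and 3 of the 12 genes, these 2 among them, reached 100 CPM in all 3 granule cells. Laptm5, whose level was also used to pick out cell 33, counts in the 10 there. Rac2, a GTPase of the neutrophil oxidase, had 1175, 403 and 35.2 CPM in the granule cells and 305 CPM in cell 33. Tyrobp, an adaptor of activating receptors, had 0.0937, 100.3 and 0 CPM in the granule cells and 2267 CPM in cell 33, and Itgb2, a leukocyte integrin chain, had 0.0937, 114 and 0 CPM in the granule cells and 393 CPM in cell 33. Cd53, a leukocyte tetraspanin, had 0.281, 211 and 6.00 CPM in the granule cells, Selplg, the selectin ligand, had 1.17, 2.86 and 539 CPM, and Was, an actin regulator, had 48.9, 88.3 and 158 CPM. The same 3 genes had 345, 112 and 111 CPM in cell 33. Of the 3 granule cells, Tyrobp, Itgb2 and Cd53 thus reached 100 CPM in cell 32 alone, and Selplg and Was in cell 36 alone. No gene measured of the B cell, erythroid and megakaryocyte, or class II antigen presentation lists (1, 2 and 4 genes) reached 100 CPM in the 4 cells, where Cd74 was highest, at 4.94 CPM in cell 33.

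Cell 33 was the cell of the macrophage list. Of 11 measured genes 10 reached 100 CPM there, against 0, 2 and 1 in cells 29, 32 and 36 and a median of 0 (highest 2) in the 35 others, with 10.3% of all genes at that level in cell 33. Beside Clec4f these were Cd5l with 8957 CPM, the complement genes C1qa, C1qb and C1qc with 3315, 7889 and 6089 CPM, the iron exporter gene Slc40a1 with 6029 CPM, Csf1r, the receptor for macrophage growth factor, with 3407 CPM, the complement receptor gene Vsig4 with 1312 CPM, Emr1, encoding F4/80, with 872 CPM, and the nuclear receptor gene Nr1h3 with 785 CPM. Clec4f is a member, and its level was used to pick out cell 33. Slc40a1 and Csf1r were not particular to cell 33. Each reached 100 CPM in 4 of the 35 others, up to 4500 CPM in cell 26 and 2579 CPM in cell 23. The macrophage list summed to 42997 CPM in cell 33, against 1.13, 378 and 491 CPM in cells 29, 32 and 36 and at most 4688 CPM in the others. Cd14, a lipopolysaccharide receptor and the remaining gene, was at 1.01 CPM in cell 33, and it had 0.375, 206 and 491 CPM in cells 29, 32 and 36. The endothelial gene Cdh5, the single endothelial marker measured, had 138 CPM in cell 33, against 0 in the 3 granule cells and at most 42.4 CPM elsewhere. Its part in the values of cell 33 was not tested.

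The genes most like Clec4f over the 39 cells were Vsig4 (Pearson r 0.976), Clec1b (0.968), Ccl6 (0.959), Zfp707 (0.954) and Fcna (0.938). Those most like Laptm5 were Csf2rb (0.945), Tgfb1 (0.907), Lcp1 (0.884), Themis2 (0.880) and Cybb (0.877). Csf2rb, the shared receptor chain for GM-CSF and interleukin-3, had 113, 77.6 and 529 CPM in cells 29, 32 and 36 and 707 CPM in cell 33, and Lcp1, encoding L-plastin, an actin bundler of leukocytes, had 148, 28.6 and 391 CPM in the granule cells and 890 CPM in cell 33. Of the 5 genes named for each, Spearman rank correlation kept 0 for Laptm5 and 1 for Clec4f, so these names depend on the measure.

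Clec4f at 206 CPM in cell 2, 972 reads, came with other proportions of macrophage transcripts than in cell 33. Cell 2 had 18 of 19 hepatocyte markers at 100 CPM and was one of 6 such cells with 16 or more. It held Csf1r at 1358 CPM, Clec1b at 277 CPM, C1qc at 88.6 CPM and Vsig4 at 56.0 CPM, but C1qa at 1.70 CPM, C1qb at 2.97 CPM and Cd5l at 0.636 CPM. In cell 33 C1qb was above Clec4f, at 7889 and 4341 CPM. Laptm5 at 115 CPM in cell 3, 475 reads, was in another cell of that kind, with 17 hepatocyte markers at 100 CPM.

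**Figure D3:**
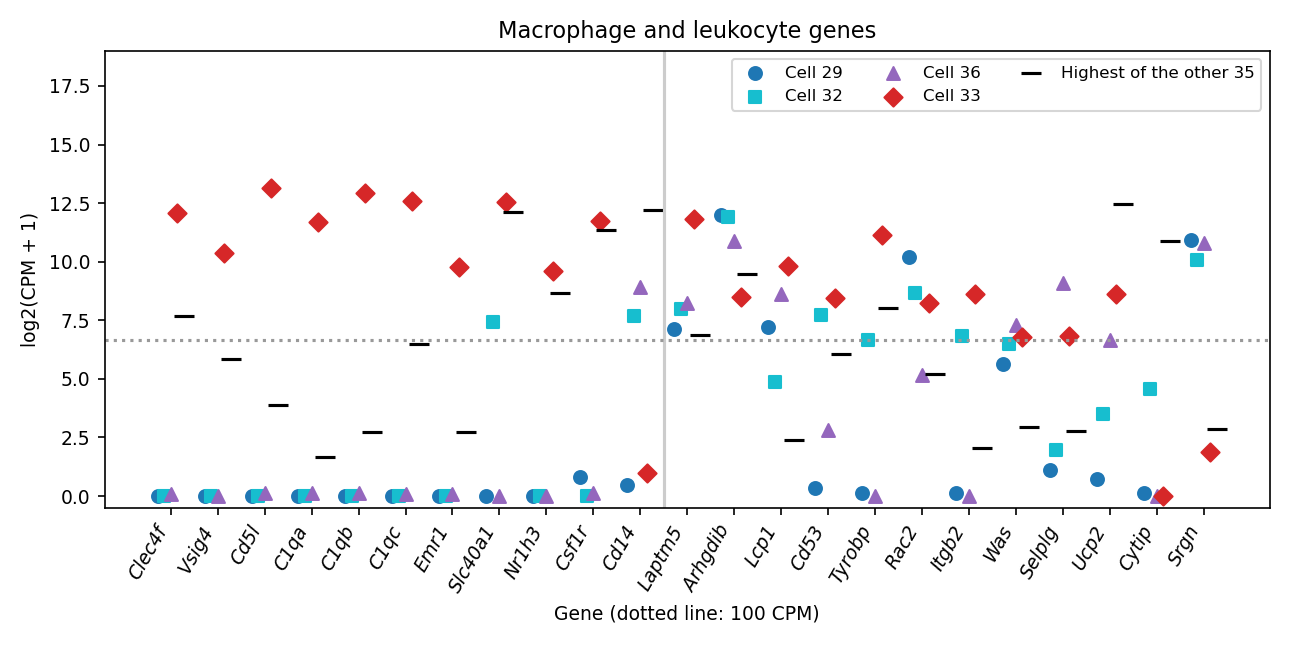
Level of the macrophage genes (left of the line) and pan-leukocyte genes (right) as log2(CPM + 1) in cells 29, 32, 36 and 33, with a bar for the highest of the other 35 cells and a dotted line at 100 CPM. Cell 33 is above 100 CPM for 10 of 11 macrophage genes, where cells 29, 32 and 36 are under 1 CPM for 9 of them, and Srgn shows the opposite order.

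Markers of bile duct cells, the type that Krt19 marks in liver, were near 0 in all 4 cells although they were sorted as GFP-positive. Krt19 had 0.656 CPM, 7 reads, in cell 29, 0.370 CPM, 9 reads, in cell 32, 0 in cell 36 and 0.126 CPM, 1 read, in cell 33. None of the 14 measured duct markers reached 100 CPM in these 4 cells, against a median of 7 (range 0 to 10) in the 35 others, and the list summed to 16.1, 19.4, 1.12 and 11.4 CPM in cells 29, 32, 36 and 33, against a median of 25342 CPM (lowest 3.47 CPM, in cell 37). Low duct markers were not particular to the 4 cells: cells 1, 4, 35 and 37 also had 0 at 100 CPM, and Krt19 was at 1 CPM or more in 20 of the 35 others. None of the 8 mesothelial and 8 fibroblast markers reached 100 CPM in the 4 cells either, but the median in the 35 others was also 0 for each list (highest 8 and 5). Of 19 hepatocyte markers, 1, 2, 1 and 2 reached 100 CPM in cells 29, 32, 36 and 33, against a median of 2 (highest 19) in the 35 others. In the granule cells that was Hp, encoding haptoglobin, which neutrophil precursors also make, with 4271, 2717 and 864 CPM in cells 29, 32 and 36, and Trf in cell 32 with 213 CPM. Apoa1, Apoa2 and Fabp1 were listed at 0 in all 4 cells. In cell 33 the 2 markers were Trf, with 927 CPM, and Alb, encoding albumin, with 292 CPM. Alb had 23.0 CPM in cell 29 and was listed at 0 in cells 32 and 36.

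Below 100 CPM the granule genes were not spread evenly over the cells. In cells 5 to 23, 19 cells in all, 2 of 190 values of the 10 genes were above 0, both of Clec12a, with at most 2.51 CPM. Both were at 1 CPM or more, a level that 1866 (cell 17) to 4268 (cell 6) of all 10061 genes reached in those cells. No label sets cells 5 to 23 apart, and the 10 genes were picked for being high in other cells. Elane was at 1 CPM or more in 7 further cells besides 29, 32 and 36, namely 24, 25 and 28 and 33, 34, 35 and 37. It had 323, 249 and 519 reads in cells 24, 25 and 28, and 341, 87, 94 and 77 reads in cells 33, 34, 35 and 37, which is 6.16 to 59.3 CPM. Among cells 24 to 37 the other 4, numbers 26, 27, 30 and 31, had at most 1 read of Elane.

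The proportions of Mpo, Prtn3 and Ms4a3 to Elane in those 7 cells fell into 2 sets, cells 24, 25 and 28 and cells 33, 34, 35 and 37. Nkg7 to Elane also had separate ranges, 0.0790 to 0.133 against 0 to 0.0381. For Srgn the ranges overlapped, 0.0482 to 0.0743 against 0.0616 to 0.0851. So did those for Ly6c2, 0.0173 to 0.0433 against 0.0260 to 0.0865, and those for Clec12a and Laptm5. The ratio of Ms4a3 to Elane was 0.176 to 0.205 in cells 24, 25 and 28, against 0.218 in cell 32 and 0.0272 in cell 29. The ratio of Mpo to Elane was 0.935 to 1.27 in cells 33, 34, 35 and 37, against 1.03 in cell 36, and it was 0.362 to 0.464 in cells 24, 25 and 28, against 0.418 in cell 32 and 0.484 in cell 29. Prtn3 to Elane was 0.276 to 0.297 in cells 24, 25 and 28, against 0.316 in cell 32, and 0.0792 to 0.138 in cells 33, 34, 35 and 37, against 0.103 in cell 36.

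In these 3 ratios cells 24, 25 and 28 were each nearest to cell 32, and cells 33, 34, 35 and 37 each to cell 36. The mean absolute log2 difference of the 3 ratios was 0.236, 0.102 and 0.136 between cells 24, 25 and 28 and cell 32, against 1.20 to 1.24 with cell 29 and 1.62 to 1.66 with cell 36. It was 0.186, 0.304, 0.244 and 0.0912 between cells 33, 34, 35 and 37 and cell 36, against at least 0.759 with the other high cells. These last distances rest on few reads and are imprecise. In cells 33, 34, 35 and 37 Ms4a3 had 16, 6, 4 and 3 reads and Prtn3 had 27, 9, 13 and 8 reads. The Elane reads of the low cells came to 0.0482% to 0.101% of those of cell 32 for cells 24, 25 and 28, and to 0.0166% to 0.0734% of those of cell 36 for cells 33, 34, 35 and 37. How reads of the granule genes came to be listed in these 7 cells was not tested, and a low value in them is not read here as a granule cell. The 3 granule cells are counted without them.

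**Figure D4:**
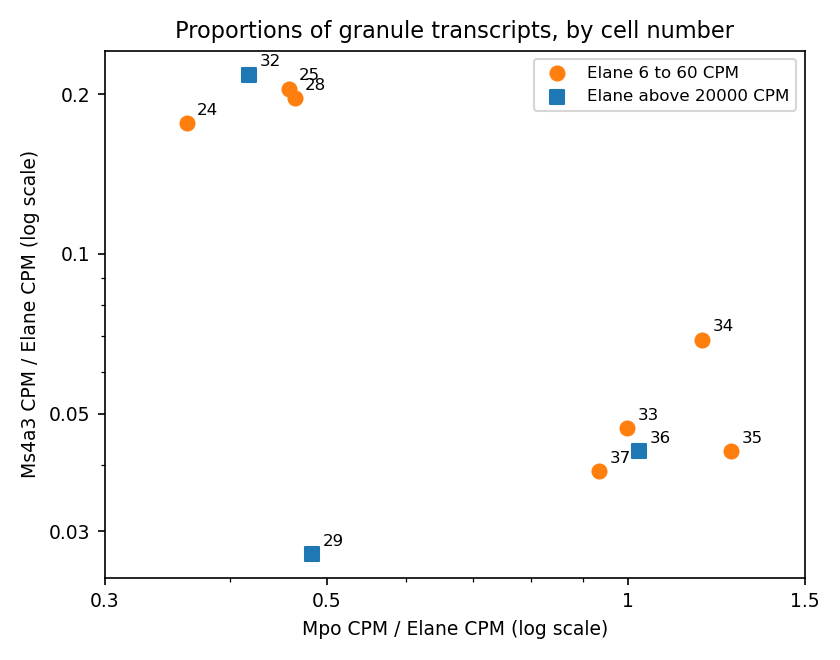
Ratio of Mpo to Elane (x axis, log scale) against ratio of Ms4a3 to Elane (y axis, log scale) in the 10 cells with Elane at 1 CPM or more, labelled by cell number, with circles for the 7 cells at 6.16 to 59.3 CPM of Elane and squares for cells 29, 32 and 36. Cells 24, 25 and 28 lie beside cell 32, and cells 33, 34, 35 and 37 beside cell 36. Cell 29 stands apart from the first set mainly by its Ms4a3 ratio, 0.0272, and from the second mainly by its Mpo ratio, 0.484.

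Other granule genes were also read at low levels in cells 24, 25 and 28, while Clec4f was listed at 0 there. In cells 24, 25 and 28 Nkg7 had 31, 33 and 41 reads, Srgn 24, 16 and 25 reads, Clec12a 20, 16 and 22 reads and Ly6c2 14, 6 and 9 reads. In cell 33 Clec12a had 608 reads, or 1.78 times the CPM of Elane, where it was 0.0130 to 0.0345 times in cells 34, 35 and 37, and Laptm5 was 83.4 times Elane. Those 2 genes were thus high in cell 33 by more than the proportions of cell 36, while Mpo, Prtn3 and Ms4a3 kept to them.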

How the data were processed

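RNA of 39 single cells was measured by RNA sequencing. Per the submitters' processing notes, Bowtie 0.12.9, eXpress 1.5.1, edgeR and build mm9 were used, in roles that are not given in the sources used here. The deposited values are log2 expression per RefSeq transcript, per the file headers and the values. A floor of -2.58 (log2), found in every cell, was taken as no reads: 2 was raised to each value and 0.167 subtracted, giving what is called CPM here, a unit inferred from the values. Transcripts were summed per symbol, though each of the 10 genes had 1 transcript. The cells' scaling was used as deposited, and no count model was fitted.

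The 10 genes, the lists, the 100 CPM level and the rule for named genes (the members, the 5 genes most like each of Elane, Laptm5 and Clec4f, and leukocyte list genes at 100 CPM in the granule cells) were chosen with earlier results of these data known. Other genes were named after their values were seen, and 1 gene the rule names is not reported here. Detection was set at 1 CPM. The worth of 1 read was the commonest value above 0 in a cell. The correlation ranking and read step were tested on simulated data. Simulated reads were all whole numbers, an easier case than the real data. There 38% to 52% of low values were whole reads in cells 1 to 37, and 25% to 28% in cells 38 and 39. No doublet caller was run and no cell removed. Analyses used Python 3.11.15, pandas 2.3.3 and scipy 1.17.1.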

Additional observations from a re-analysis of the deposited data

How the results depend on the processing

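With a threshold of 10 CPM, 5 cells held Elane, Mpo and Prtn3 together and 6 cells held 3 or more of the 10 genes, in place of 3, and 1 gene in place of 14 reached it in every such cell and no other. With 1000 CPM, 1 cell held Clec4f in place of 2, and 6 genes did so in place of 14. Rescaling each cell to 1000000 without Rn45s, Lars2 and Rorb gave 22 such genes. Leaving out 1 of cells 29, 32 and 36, chosen after seeing the data, gave 25 genes without cell 32 to 36 genes without cell 29, and 31 without cell 36. The other 27 of 36 alternative values of these 4 counts stayed within 1.5 times. Part of these were fixed in advance and show no robustness. Each of the 10 genes had 1 transcript, so taking the highest transcript could not change the counts of cells. Leaving out cell 29, 32 or 36 had to turn 3 cells into 2 and could not change the count for Clec4f. Of 30 alternative counts of cells with a member detected, 11 moved by more than 1.5 times, 4 up and 7 down, with the detection level. With values under 100 CPM set to 0, 2 of the 5 genes most like Elane, 2 of those most like Laptm5 and 1 of those most like Clec4f remained. No paired analysis was possible because the labels give 1 group. Depth is unknown for cells 38 and 39.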

Other observations

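Several genes known from neutrophils and monocytes were common outside the 4 cells with high members. Among the 35 remaining cells, Mgst1, a microsomal glutathione transferase, reached 100 CPM in 25, Lcn2 in 19, Klf4 in 16, Cd63 in 12, Gstm1 in 12, Serpinb1a in 11 and Cd14 in 10. Mgst1 was at most 1.98 CPM in cells 29, 32 and 36 and 1.01 CPM in cell 33. Of the class II antigen presentation list, H2-Aa, H2-Ab1 and H2-Eb1 were at most 0.126 CPM in the 4 cells, while H2-Aa reached 2427 CPM in cell 7.

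The 14 genes at 100 CPM in cells 29, 32 and 36 and in no other cell included 6 that are not members. Beside Ctsg and Kit these were Adssl1, an adenylosuccinate synthase, with 288, 630 and 296 CPM, Phkb, a phosphorylase kinase subunit, with 963, 212 and 121 CPM, the kinase gene Stk35 with 315, 122 and 115 CPM and the splicing regulator gene Mbnl3 with 143, 320 and 212 CPM. The highest values of the last 4 in the other 36 cells were 6.44, 18.4, 39.0 and 66.7 CPM, in the same order.

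Low reads of genes that were high in 1 cell were shared within several sets of cells, with or without Elane, Mpo and Prtn3 reads. Genes were taken that had at least 2000 CPM in 1 cell and under 2% of that in every other cell, a rule chosen after seeing the data. The 10 such genes of cells 24 and 25 were above 0 in 40 of 40 cases in the other cells of the set 24, 25, 28, 29 and 32, in 12 of 40 cases (30%) in cells 26, 27, 30 and 31, and in 13 of 50 (26%) in cells 33 to 37. The 6 such genes of cell 26 were above 0 in 16 of 18 cases (88.9%) in cells 27, 30 and 31. They were so in 12 of 30 (40%) in cells 24, 25, 28, 29 and 32, and in 5 of 30 (16.7%) in cells 33 to 37. Single cells departed from these pooled shares. The genes of cell 26 were above 0 in 4 of 6 cases in cell 31, but in 5 of 6 in cell 32. In cell 36, 3 of 3 genes of cell 25 were above 0, against 2 of 7 of cell 24. The 18 such genes of cells 33 and 34 were above 0 in 61 of 72 cases (84.7%) within cells 33 to 37, and in 20 of 90 (22.2%) and 10 of 72 (13.9%) in the earlier sets. Outside these sets, the 12 genes of cell 33 were above 0 in 9 of 12 cases (75%) in each of cells 1, 2, 3, 4 and 38, against 8 in cell 37. The 6 genes of cell 34 were above 0 in 4 cases in cell 35, and also in cells 9 and 10. The 16 genes of cell 15 were all above 0 in cells 14, 16, 17 and 18, against 25% to 62.5% in each remaining cell. The 8 genes of cell 16 were all above 0 in cells 15, 17 and 18, but 6 were in cell 14 and also in cell 30. The 5 genes of cell 17 were all above 0 in cells 14 and 16, but 4 were in cells 15 and 18 and also in cell 38. Of the 7 genes of cell 22 all were above 0 in cells 19, 20 and 21 and 6 in cell 23. In each remaining cell 0% to 42.9% of them were. Elane, Mpo and Prtn3 were listed at 0 in cells 14, 16 to 21 and 23. The 4 genes of cell 21 were all above 0 in cells 20, 22 and 23, but in up to 75% of cases in other cells, such as cells 1, 6 and 8. Genes and cells repeat in these cases, so they are no replicates. The labels name no run or plate for these sets, and what they share was not tested.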
